A study of Mus musculus with 11 samples.

Results

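The 526 genes compared here were those whose symbol stood in both deposited expression tables of the study, the brown adipose tissue (BAT) table and the liver table. Each table holds 2500 genes, so the shared genes were 21.0% of either table and 526 of the 4474 genes found in at least 1 of them. For every shared gene the mean of the control libraries was subtracted from the mean of the Cre libraries in each tissue, and the liver difference was then subtracted from the BAT difference to give the contrast between tissues. Every mouse carried floxed alleles of Adcyap1r1, whose product is the PAC1 receptor for the neuropeptide PACAP (the sample labels spell the genotype Acypap1r1 floxed/floxed), and all underwent SEFL, an abbreviation left unexpanded in the labels. Control animals had AAV-GFP, an adeno-associated virus coding for green fluorescent protein, injected into the preBötC, the brainstem site at which the breathing rhythm arises. Cre animals had AAV-Cre, which codes for a recombinase that cuts out floxed DNA. BAT was sequenced from controls 1 and 2 and from Cre 4, 5 and 6, and liver from controls 7, 8 and 9 and from Cre 10, 11 and 12. The promoter driving the viruses, the age and sex of the mice, and whether a BAT and a liver library came from the same mouse are not given in the sources used here.

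Brown fat burns lipid and glucose to make heat under the control of sympathetic nerves, while the liver makes glucose, lipoproteins, plasma proteins and, in rodents, urinary proteins for the rest of the body. Both tissues also hold blood, vessels, connective tissue and resident immune cells, and brown fat lies against muscle, so a piece of either organ contains RNA from several cell types. In such bulk samples fewer cells of a type and less RNA per cell cannot be told apart. All values below are z-scores: for each gene a library's value was centred and divided by that gene's SD over 6 libraries of the tissue, so a score places a library among the others and holds no expression level, fold change or depth. The largest score that 6 libraries allow is 2.24. With no level in the tables, the tissue labels could not be checked against defining markers, and no gene can be called absent. Values are listed in the order controls 1 and 2 then Cre 4, 5 and 6 for BAT, and controls 7, 8 and 9 then Cre 10, 11 and 12 for liver. Nothing in the labels says that libraries of a group came from separate animals, so p-values cover only the spread between these libraries.

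The Cre difference had the same sign in both tissues for 322 of the 526 genes (61.2%) and opposite signs for 204 (38.8%). Of the agreeing genes 248 (47.1% of all shared genes) had a lower Cre mean in both tissues and 74 (14.1%) a higher one in both. Of the opposing genes 145 (27.6%) were lower in BAT and higher in liver with Cre, and 59 (11.2%) were higher in BAT and lower in liver. Genes of T, NK and B cells, interferon-stimulated genes, cell division genes and mitochondrially encoded transcripts were mostly in the group that was lower in both. Skeletal muscle genes lay lower in BAT and mostly higher in liver, and the major urinary protein genes lay higher in BAT and lower in liver. These shares have to be read against the tables from which the genes come: 82.5% of all BAT genes and 60.4% of all liver genes had a lower Cre mean, against 74.7% and 58.4% of the shared genes. Across the 526 genes the differences in the tissues were nearly unrelated, with Pearson's r of 0.11 and Spearman's rho of 0.078, a description over genes that share their libraries.

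**Figure D1:**
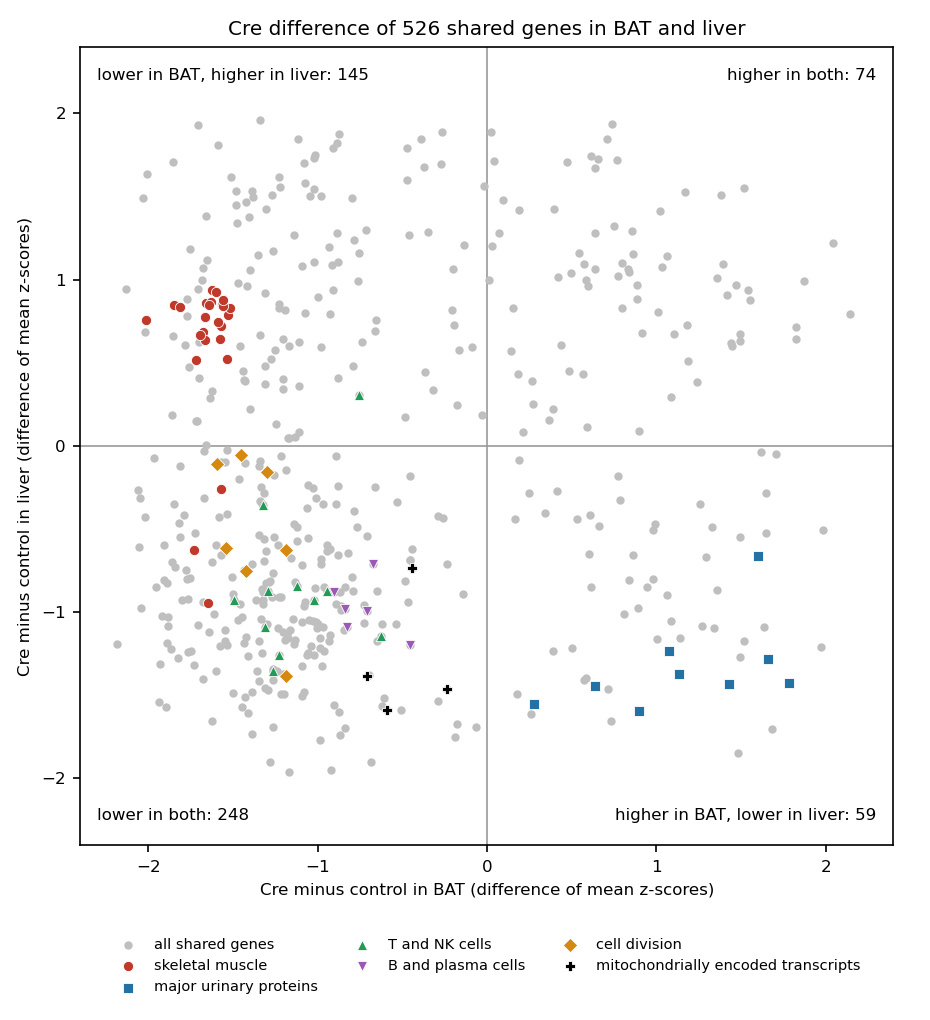
Cre minus control in BAT (horizontal axis) and in liver (vertical axis), both as differences of mean z-scores, for the 526 shared genes, each point being a gene and coloured points the members of 6 gene lists. Of the genes 248 fall in the lower left, 145 in the upper left, 74 in the upper right and 59 in the lower right, with skeletal muscle genes mostly upper left and major urinary protein genes lower right.

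The contrast ranged from -3.64 to 3.39 with a median of -0.46 and quartiles of -1.5 and 0.22, and it was below 0 for 349 genes (66.3%). In limma's gene-wise model over the 11 libraries the contrast of 0 genes passed the threshold of 0.05, and the smallest Benjamini-Hochberg adjusted p was 0.43. With limma's variance moderation the count was also 0. At an unadjusted p under 0.05 the model named 36 genes (6.84%), 28 with a contrast below 0 and 8 above, and 47 with moderation. Within a tissue limma called 0 of the shared genes as well, with smallest adjusted p of 0.36 in BAT and 0.45 in liver and with 29 and 42 shared genes at an unadjusted p under 0.05. A count that does not rest on a variance estimate is that of genes with every Cre library on 1 side of every control, called non-overlapping below. In BAT this held for 148 shared genes (28.1%, against 33.0% of the whole BAT table), and in liver for 112 (21.3%, against 22.6% of the liver table). Of the 148 BAT genes 118 were lower and 30 higher with Cre, and of the 112 liver genes 58 were lower and 54 higher. With such shares some genes would be non-overlapping in both of 2 unrelated tissues, so a joint count is by itself no sign of a link. In both tissues at once 23 genes were non-overlapping. Of these, 8 were lower in both (1.52% of the shared genes), 1 was higher in both (0.19%), 9 were lower in BAT and higher in liver (1.71%) and 5 were higher in BAT and lower in liver (0.951%). The named members of these 4 sets are described below, and the predicted genes among them were Gm17936, Gm10563 and Gm28048 (lower in both), Gm7887, Gm14680 and Gm10705 (lower in BAT, higher in liver) and Gm20388 (higher in BAT, lower in liver).

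A few libraries stood apart. BAT control 1 was the highest BAT library for 324 shared genes (61.6%), liver control 8 the highest liver library for 278 (52.9%), and BAT Cre 5 and liver Cre 12 were the highest for 106 and 99. Of the 248 genes lower in both tissues, 218 were highest in BAT control 1, 206 in liver control 8, and 185 in both of these libraries. Without BAT control 1 the share of opposing genes was 54.9%, and 133 genes were lower in both tissues. Without liver control 8 the share was 49.4%. Without any other single library it lay between 34.8% and 42.2%. The median contrast moved from -0.46 to 0.21 without BAT control 1 and to -1.4 without BAT control 2. The share of opposing genes was thus higher without BAT control 1 and without liver control 8, whereas without BAT control 2 it was 38.6%.

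Skeletal muscle genes were the largest opposing group. Of 40 marker genes 25 were shared, and all 25 had a lower Cre mean in BAT with non-overlapping groups, where 28.7% of the BAT table was non-overlapping and lower. In liver 22 of the 25 had a higher Cre mean and 3 (Casq1, Neb and Eno3, chosen after their values were seen) a lower one. The median difference was -1.63 in BAT and 0.78 in liver, and the median contrast was -2.36 against -0.46 over all shared genes. The 25 genes encode the contractile and calcium-handling machinery of striated muscle: actin and myosin heavy and light chains, troponins, titin and nebulin, the calcium pump Atp2a1, the release channel Ryr1, myoglobin and the muscle isoforms of glycolytic enzymes. Their mean score was 1.11 and 1.04 in the BAT controls and -1.84, 0.077 and 0.053 in BAT Cre 4, 5 and 6. In liver it was -0.46, -0.0034 and -0.44 in the controls and -0.55, -0.50 and 1.95 in Cre 10, 11 and 12. Thus the BAT controls were alike and BAT Cre 4 was far below, while in liver 5 libraries lay close together and Cre 12 was far above. Liver Cre 12 was the highest liver library for 23 of the 25 genes.

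Acta1, the alpha-actin of skeletal muscle, was the muscle marker with non-overlapping groups in both tissues. Its BAT scores were 1.03 and 1.07 in controls and -1.91, 0.09 and 0.094 in Cre libraries, and its liver scores -0.45, -0.44 and -0.52 in controls and -0.39, -0.44 and 2.23 in Cre libraries. The liver groups were separated by only 0.0047 between the highest control and the lowest Cre library, and the higher Cre mean came from Cre 12. Its contrast was -2.56 ± 1.25 (SE) with limma adjusted p = 0.71. Ckm, the creatine kinase of muscle, had BAT scores of 1.07 and 0.92 in controls and -1.95, 0.28 and 0.069 in Cre, and liver scores of -0.57, -0.093 and -0.52 and -0.55, -0.48 and 2.21. Myh1, a fast myosin heavy chain, had 0.85 and 1.32 and -1.83, 0.11 and -0.015 in BAT and -0.41, -0.20 and -0.56 and -0.49, -0.56 and 2.22 in liver. For Ckm and Myh1 too, BAT Cre 4 and liver Cre 12 were the extreme libraries, and in liver their remaining groups overlapped. Without liver Cre 12 the opposition was lost: 22 of the 25 genes were then lower in both tissues, and the median liver difference was -0.14 while that in BAT stayed at -1.63. Without BAT Cre 4 all 25 still had a lower BAT mean, with a median of -0.97. Liver Cre 12 was also the highest liver library for the shared brown fat genes Dio2 (2.18) and Kcnk3 (2.14) and for the adipocyte gene Cfd (2.18), and their part in the muscle result was not tested.

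The promoters of muscle genes carry short motifs known to bind muscle transcription factors. The 25 genes were listed as muscle markers, so the motif shares below describe that list and not the scores. RefSeq promoters (250 bases before to 50 after the transcript start, GRCm38.p6) were matched for 20 of the 25 genes, with 24 promoters in all. The E-box CAGCTG, the letters bound by MyoD-type factors, was on either strand of 13 of the 24 (54.2%), against 16.3% of all 32851 mouse promoters in the table. A CArG box, the site of serum response factor, was found in 2 of 24 (8.33% against 1.63%) and a MEF2 site, bound by the MEF2 factors, in 4 of 24 (16.7% against 1.86%). A match is a string of letters and not evidence of binding. The promoters of Acta1 (chr8:123894726-123895025, minus strand) and of the fast myosin gene Myh4 (chr11:67237562-67237861, plus strand) are shown because they were the 2 that held a CArG box. They are written 5′ to 3′ with CArG boxes, E-boxes and, for Myh4, a MEF2 site in capitals.
Acta1: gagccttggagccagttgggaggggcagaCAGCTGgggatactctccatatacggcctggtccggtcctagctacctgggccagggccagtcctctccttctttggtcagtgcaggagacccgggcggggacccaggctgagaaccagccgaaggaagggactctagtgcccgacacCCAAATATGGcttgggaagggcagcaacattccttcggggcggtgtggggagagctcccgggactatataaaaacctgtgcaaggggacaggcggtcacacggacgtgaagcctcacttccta
Myh4: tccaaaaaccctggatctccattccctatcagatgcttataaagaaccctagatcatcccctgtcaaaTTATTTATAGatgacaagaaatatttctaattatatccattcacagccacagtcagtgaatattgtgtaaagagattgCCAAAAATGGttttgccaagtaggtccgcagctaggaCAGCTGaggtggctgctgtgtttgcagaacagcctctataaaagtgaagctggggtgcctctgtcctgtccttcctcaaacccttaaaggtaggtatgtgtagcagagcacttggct
In the Acta1 window the CArG box began 73 bases and the E-box 221 bases before the start, and in that of Myh4 the CArG box began 104, the E-box 67 and the MEF2 site 182 bases before it. The scores of Myh4 were 1.16 and 0.86 in BAT controls, -1.94, 0.15 and 0.12 in BAT Cre, -0.24, -0.46 and -0.38 in liver controls and -0.73, -0.40 and 2.21 in liver Cre, close to those of Acta1 in every library.

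Among named genes lower in BAT and higher in liver, Srl, Nqo1 and Slc25a25 had the smallest p of the contrast. These genes, and Acta1, Dsp, Ppl, Mup14, Mup16, Mettl20 and Apoc1 below, were named for groups that did not overlap in these same scores, so the p-values given for them describe that separation and are no test of it. Srl encodes sarcalumenin, a calcium-binding protein of the sarcoplasmic reticulum, and lies at chr16:4480216-4541816 in GRCm38. Its BAT scores were 1.39 and 1.36 in controls and -1.09, -0.43 and -0.38 in Cre, and its liver scores -0.77, -1.45 and -0.23 in controls and 0.46, 0.27 and 1.73 in Cre. The controls of BAT were both well above the Cre libraries, and in liver all 3 Cre libraries were above 0 and all controls below. The contrast was -3.64 ± 0.70 (SE), with limma adjusted p = 0.43. Unlike that of the muscle list, the liver separation of Srl did not rest on Cre 12, since Cre 10 and Cre 11 had 0.46 and 0.27. Nqo1, a quinone reductase of the oxidative stress response (chr8:107388225-107403206), had 1.21 and 1.23 in BAT controls and -1.08, -1.21 and 0.37 in BAT Cre. In liver it had -1.66, 0.064 and -0.97 in controls and 1.1, 0.83 and 0.63 in Cre. Its liver Cre libraries were thus all above every control, and in BAT Cre 6 was nearer to the controls than Cre 4 and Cre 5 were. The contrast was -3.57 ± 0.82 (SE), with limma adjusted p = 0.43. Slc25a25, a mitochondrial carrier that exchanges ATP-magnesium for phosphate (chr2:32414487-32451445), had 1.43 and 1.2 in BAT controls, -1.37, -0.15 and -0.62 in BAT Cre, -2.0, -0.48 and 0.24 in liver controls and 0.62, 0.78 and 0.83 in liver Cre. Its liver Cre libraries lay close together, while the controls were spread widely below them. The contrast was -3.52 ± 0.86 (SE), with limma adjusted p = 0.43.

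**Figure D2:**
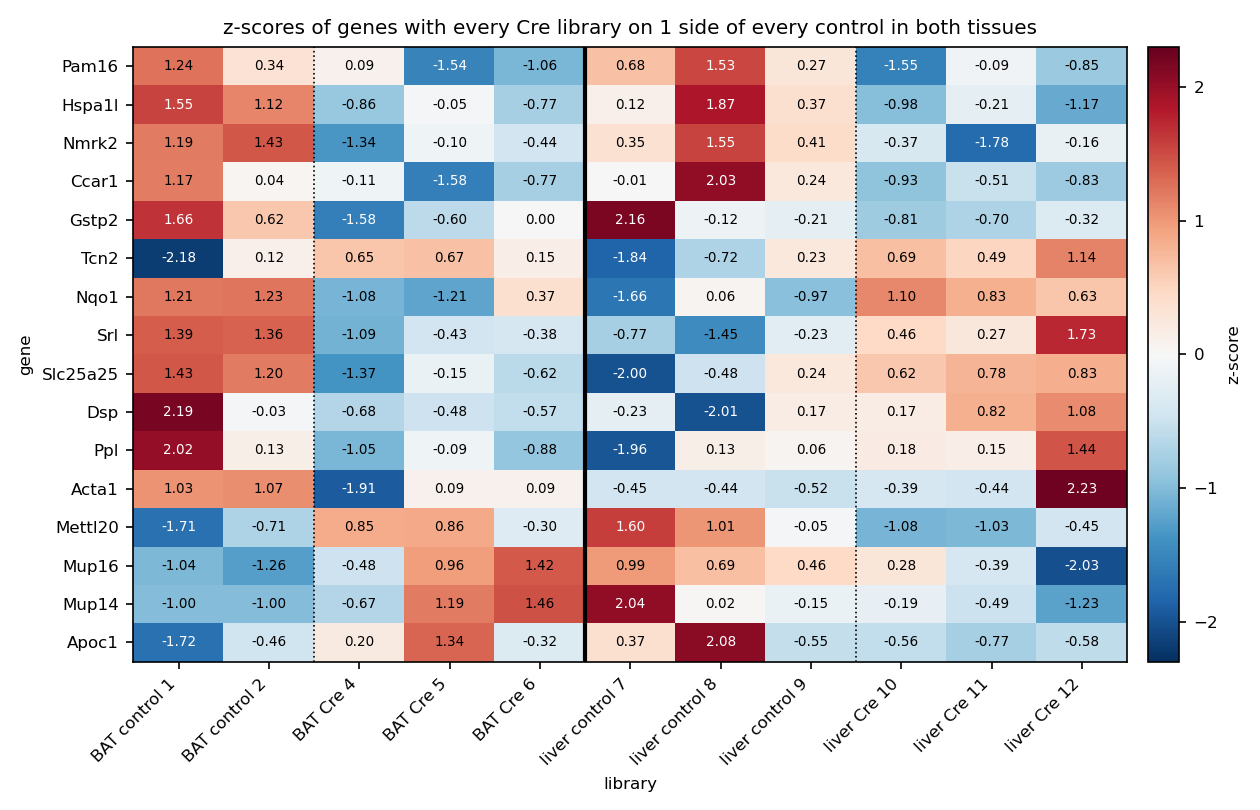
z-scores (colour and printed number) of the 16 named genes, in rows, with non-overlapping Cre and control groups in both tissues, across the 11 libraries in columns; the thick line parts BAT from liver and dotted lines part controls from Cre. Srl, Nqo1 and Slc25a25 are positive in both BAT controls and in all liver Cre libraries, while Dsp, Ppl and Acta1 hold at least 1 tissue in which a single library carries most of the difference.

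Dsp and Ppl encode the cytolinkers desmoplakin and periplakin, which anchor keratin filaments at desmosomes. Dsp (chr13:38151294-38198577) had 2.19 and -0.032 in BAT controls and -0.68, -0.48 and -0.57 in BAT Cre, then -0.23, -2.01 and 0.17 in liver controls and 0.17, 0.82 and 1.08 in liver Cre. Ppl (chr16:5086291-5132421) had 2.02 and 0.13 and -1.05, -0.091 and -0.88 in BAT, and -1.96, 0.13 and 0.057 and 0.18, 0.15 and 1.44 in liver. For both genes BAT control 1 was alone far above the rest and 1 liver control was alone far below, control 8 for Dsp and control 7 for Ppl. The nearest liver libraries of the groups differed by 0.0065 for Dsp and 0.018 for Ppl. The contrasts were -3.04 ± 1.10 (SE) and -2.93 ± 1.15 (SE), each with limma adjusted p = 0.69. Dsp is on the epithelial junction list and Ppl is not, and the other shared members of that list were Ocln, Cdh1 and Prss8. Ocln, a tight junction protein, was lower in BAT and higher in liver as well, with 2.23 and -0.42 in BAT controls and -0.22, 0.96 and 1.51 in liver Cre. Unlike those of Dsp, the groups of Ocln overlapped in both tissues. Cdh1, the epithelial cadherin, was higher in both tissues, and Prss8, an epithelial serine protease, was lower in both.

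The major urinary protein genes opposed in the other direction. These lipocalins are made by the liver and carry pheromones in mouse urine. All 9 shared members of 22 listed had a higher Cre mean in BAT (17.5% of the whole BAT table did) and a lower one in liver, a combination seen in 11.2% of the shared genes. In BAT 3 of the 9 were non-overlapping (4.36% of the BAT table were non-overlapping and higher), in liver 7 of 9 (12.3% of the liver table were non-overlapping and lower), and in both tissues 2, Mup14 and Mup16. The median difference was 1.13 in BAT and -1.43 in liver, and the median contrast was 2.49. The mean score was -0.79 and -0.66 in BAT controls, -0.63, 0.98 and 0.97 in BAT Cre, 1.19, 0.50 and 0.31 in liver controls and -0.086, -0.33 and -1.58 in liver Cre. In BAT the higher mean came from Cre 5 and Cre 6, with Cre 4 at the level of the controls. In liver the Cre libraries were all below the controls on average and Cre 12 was lowest. With liver Cre 12 left out 8 of the 9 genes still opposed, with a median contrast of 2.11, and 8 of 9 still did without BAT Cre 6, without BAT Cre 5 or without BAT control 1. Liver control 7 was the highest liver library for 5 of the 9. It also had the highest liver mean of the Y-linked genes, at 2.02, and Mup3 and Mup7 are on the list of male-biased liver genes. The part of sex in the differences of this family was not tested. Without liver control 7 the contrast was 3.08 for Mup16 and 2.24 for Mup14, against 3.21 and 2.94 with all libraries.

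The copies of this family are nearly identical, so that the reads of one may be counted for another and the 9 genes are not 9 separate measurements. The start of 3 coding sequences of equal length, 540 bases, shows how few bases tell the copies apart. Bases 1 to 120 of the coding sequence, assembled from the GENCODE M21 annotation of GRCm38 (chromosome 4, minus strand), are printed 5′ to 3′ with bases that differ from Mup14 in capitals.
Mup14: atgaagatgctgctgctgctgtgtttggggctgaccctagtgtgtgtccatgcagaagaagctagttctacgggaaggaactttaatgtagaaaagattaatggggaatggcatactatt
Mup16: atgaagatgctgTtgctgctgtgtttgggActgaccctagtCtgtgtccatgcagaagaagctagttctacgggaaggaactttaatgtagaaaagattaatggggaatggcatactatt
Mup10: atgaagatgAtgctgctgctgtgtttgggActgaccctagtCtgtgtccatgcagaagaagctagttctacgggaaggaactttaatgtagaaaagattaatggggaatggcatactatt
Mup16 and Mup10 each differ from Mup14 at 3 of these 120 bases. Over whole coding sequences the 28 pairs among 8 of the genes were 95.9% to 100% identical with a median of 99.1%, and their longest identical stretches ran from 222 to 510 bases. Mup3 stood apart, with a lowest identity of 85.1%.

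Mup16 (chr4:61515592-61519531) had BAT scores of -1.04 and -1.26 in controls and -0.48, 0.96 and 1.42 in Cre, and liver scores of 0.99, 0.69 and 0.46 in controls and 0.28, -0.39 and -2.03 in Cre. Mup14 (chr4:61300023-61304000) had -1.0 and -1.0 and -0.67, 1.19 and 1.46 in BAT, and 2.04, 0.023 and -0.15 and -0.19, -0.49 and -1.23 in liver. In BAT both followed the family, with Cre 5 and Cre 6 high, and in liver Mup16 was lowest in Cre 12 and Mup14 highest in control 7. The contrast was 3.21 ± 1.03 (SE) for Mup16 and 2.94 ± 1.16 (SE) for Mup14, each with limma adjusted p = 0.69. Mup3 had -0.51, -0.24 and 2.08 in BAT Cre and 2.03, 0.25 and -0.11 in liver controls. Mup7 had -0.93, 0.82 and 1.82 in BAT Cre and 2.11, 0.22 and -0.48 in liver controls. For both, BAT Cre 6 was the extreme BAT library and liver control 7 the extreme liver library. Mup9 was high in BAT Cre 5 alone, at 2.24, and low in liver Cre 12, at -1.93. Markers of hepatocytes moved with part of this pattern in BAT: all 8 shared hepatocyte genes were highest in BAT Cre 6, with a list mean of 2.06 there and between -0.64 and 0.12 in the remaining BAT libraries. BAT Cre 5, which had a mean of 0.98 for the urinary protein genes, had -0.28 for hepatocyte genes. The part of hepatocyte RNA in the BAT values was not tested.

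The other named genes higher in BAT and lower in liver were Mettl20 and Apoc1. Mettl20, now Etfbkmt, encodes a methyltransferase of the mitochondrial electron transfer flavoprotein and had -1.71 and -0.71 in BAT controls and 0.85, 0.86 and -0.30 in BAT Cre. In liver it had 1.6, 1.01 and -0.051 in controls and -1.08, -1.03 and -0.45 in Cre. The contrast lay between 2.51 and 3.97 in every alternative run, and with all libraries it was 3.39 ± 0.81 (SE) with limma adjusted p = 0.43. Apoc1, the gene of the lipoprotein component apolipoprotein C-I (chr7:19689481-19692660), had -1.72 and -0.46 in BAT controls, 0.20, 1.34 and -0.32 in BAT Cre, 0.37, 2.08 and -0.55 in liver controls and -0.56, -0.77 and -0.58 in liver Cre. Liver control 8 was alone high, and the nearest liver libraries of the groups differed by 0.017. Its contrast was 2.77 ± 1.12 (SE) with limma adjusted p = 0.69.

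Most shared members of the immune cell lists were lower in both tissues. Of 11 shared T and NK cell markers 10 were lower in both, as were 6 of 6 B and plasma cell markers, both shared genes of MHC class II presentation, 7 of 8 chemokines, cytokines and receptors, and 8 of 12 interferon-stimulated genes, against 47.1% of all shared genes. Among genes with a Cd symbol 13 of 14 were lower in both. The mean of the T and NK cell genes was 2.14 and -0.66 in BAT controls and -0.47, -0.19 and -0.49 in BAT Cre, then -0.61, 1.7 and 0.18 in liver controls and -0.057, -0.73 and -0.48 in liver Cre. The B and plasma cell genes averaged 1.89 and -1.03 and -0.68, 0.31 and -0.53 in BAT, and -0.36, 2.15 and -0.33 and -0.54, -0.64 and -0.28 in liver. In each tissue 1 control library was high, BAT control 1 and liver control 8, while BAT control 2 lay below every BAT Cre library and liver controls 7 and 9 lay close to the liver Cre libraries.

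**Figure D3:**
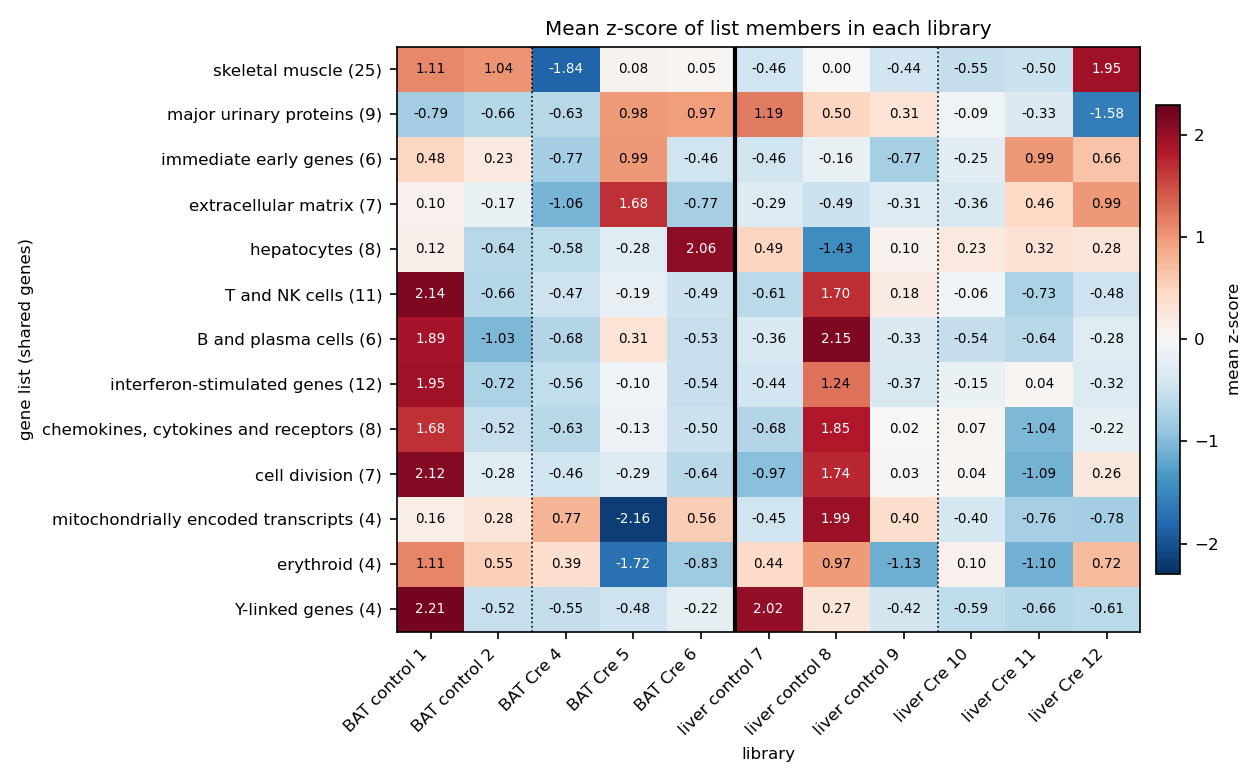
Mean z-score (colour and printed number) of the shared genes of 13 gene lists, in rows with the number of shared genes, in each of the 11 libraries, in columns; the thick line parts BAT from liver and dotted lines part controls from Cre. Immune and cell division lists are high in BAT control 1 and liver control 8, muscle genes are low in BAT Cre 4 and high in liver Cre 12, and mitochondrially encoded transcripts are low in BAT Cre 5 and high in liver control 8.

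Cd3d and Cd3g, chains of the T cell receptor complex, showed this in single genes. Cd3d had 1.85 and -0.94 in BAT controls, -0.69, 0.82 and -0.64 in BAT Cre, -0.91, 1.91 and 0.72 in liver controls and -0.56, -0.48 and -0.68 in liver Cre. Cd3g had 2.2 and -0.73, -0.17, -0.48 and -0.51, -0.78, 2.09 and -0.05 and 0.08, -0.91 and -0.43 in the same groups. Their groups overlapped in BAT, where control 2 lay below every Cre library. Cd8a, the co-receptor of cytotoxic T cells, had 2.17 in BAT control 1 and -0.88 in BAT control 2, and 1.64 in liver control 8. The B cell surface proteins Cd37 and Cd72 had 1.95 and 2.07 in BAT control 1 and 1.96 and 2.16 in liver control 8. Ighm, the heavy chain of IgM, had 1.5 and -0.96 in BAT controls and 0.034, 2.16 and -0.40 in liver controls. H2-DMb2, which helps load peptides on MHC class II, and Ciita, the transactivator of that class, had 2.02 and 2.03 in BAT control 1 and 1.76 and 2.11 in liver control 8. The sign of these lists in BAT rested on control 1: without it the T and NK cell median difference in BAT was 0.20 and that of B and plasma cell genes 0.75, against -1.23 and -0.77 with it. The T and NK cell genes that opposed between tissues were then 7 of 11 and the B and plasma cell genes 6 of 6. Without liver control 8 the liver medians were -0.19 and -0.19, against -0.93 and -0.99.

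Interferon-stimulated genes were less uniform. Of the 12 shared members 11 were lower in BAT, all but Ifi27l2a (chosen after its values were seen), and 8 were lower in liver. Their mean was 1.95 and -0.72 in BAT controls, -0.56, -0.10 and -0.54 in BAT Cre, -0.44, 1.24 and -0.37 in liver controls and -0.15, 0.044 and -0.32 in liver Cre. Oas3, an antiviral oligoadenylate synthetase, and Mx1, an antiviral GTPase, were lower in both, with 2.22 and 2.13 in BAT control 1 and 1.98 and 2.03 in liver control 8. Ifit3b, an interferon-induced protein with tetratricopeptide repeats, was the exception among the first 3 listed: it had 2.21 and -0.48 in BAT controls and -0.62, -0.48 and -0.49 in BAT Cre, but -0.72, 0.96 and -1.83 in liver controls and 0.44, 1.0 and 0.14 in liver Cre. Its liver control 9 was the lowest liver library, and its liver groups overlapped. Without BAT control 1 the median BAT difference of the list was 0.18, and 9 of the 12 genes then opposed.

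All 7 shared cell division genes were lower in both tissues. Their mean was 2.12 and -0.28 in BAT controls, -0.46, -0.29 and -0.64 in BAT Cre, -0.97, 1.74 and 0.025 in liver controls and 0.044, -1.09 and 0.26 in liver Cre, which again sets BAT control 1 and liver control 8 apart. Mki67, the proliferation marker Ki-67, had 2.17 in BAT control 1 and 1.64 in liver control 8. Top2a, the topoisomerase of dividing cells, had 2.17 and 1.5 there, and the mitotic cyclin gene Ccnb2 2.11 and 1.96. In BAT 3 of the 7 were non-overlapping (28.7% of the table were non-overlapping and lower) and in liver 0 of 7 were. Without BAT control 1 the list was still lower in BAT, with a median difference of -0.33 against -1.42, whereas without liver control 8 its liver median was 0.27 against -0.62. The chemokine receptor gene Ccr2, whose product guides monocytes, had 2.17 in BAT control 1 and 2.06 in liver control 8. Cxcl15, a chemokine of lung epithelium, was highest in BAT control 2, at 0.57, and in liver control 8, at 1.65.

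The 4 shared mitochondrially encoded transcripts, mt-Nd3, mt-Nd4l, mt-Co2 and mt-Co3, which code for subunits of respiratory complexes I and IV, were lower in both tissues with a different set of libraries behind it. Their mean was 0.16 and 0.28 in BAT controls and 0.77, -2.16 and 0.56 in BAT Cre, and -0.45, 1.99 and 0.40 in liver controls and -0.40, -0.76 and -0.78 in liver Cre. In BAT a single low library, Cre 5, made the Cre mean the lower one, and in liver a single high library, control 8, contributed most. mt-Co2 had -2.23 in BAT Cre 5 and 2.06 in liver control 8, mt-Co3 -2.13 and 2.02, mt-Nd3 -2.2 and 1.92, and mt-Nd4l -2.09 and 1.96. For 3 of the 4 the liver groups did not overlap, where 12.3% of the liver table was non-overlapping and lower. Without BAT Cre 5 the median BAT difference was 0.42 against -0.51, and all 4 then opposed. BAT Cre 5 was also the lowest BAT library for the hemoglobin genes Hba-a1, Hbb-bs and Hbb-bt, at -1.61, -1.94 and -1.86. In liver the hemoglobin genes were low in control 9 and in Cre 11, 1 library of each group, and the 4 shared erythroid genes split into 2 that agreed and 2 that opposed. Alas2, the heme synthesis enzyme of red cell precursors, was lower in both tissues, and was highest in BAT control 2 and liver control 7. Blood left in a tissue piece was not measured.

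Uty, Kdm5d, Eif2s3y and Ddx3y, all on the Y chromosome, were lower in both tissues, with 1 high control in each. Their mean was 2.21 and -0.52 in BAT controls, -0.55, -0.48 and -0.22 in BAT Cre, 2.02, 0.27 and -0.42 in liver controls and -0.59, -0.66 and -0.61 in liver Cre. BAT control 1 and liver control 7 thus differed from the rest in these genes, and liver control 8, which was high for immune genes, had 1.16 for Kdm5d and 0.016 for Eif2s3y. High scores of Y-linked genes were found among controls only, and all 4 genes were highest in BAT control 1 and in liver control 7. The sex of the mice is not given, and its part in the Cre differences was not tested. Among liver genes with a known sex bias, the 4 shared female-biased genes (Cyp3a41a, Cyp2c69, Prom1 and Atp6v0d2) averaged -1.99 in liver control 7 while the remaining 5 liver libraries lay from 0.18 to 0.71. Of the 5 shared male-biased genes 3 opposed, Mup3, Mup7 and Cspg5 (named after its values were seen), and 2 were lower in both. The list averaged 1.58 in liver control 7. Without BAT control 1 and liver control 7 together, 55.5% of the shared genes opposed and the median contrast was 0.41.

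The named genes with non-overlapping groups and a lower mean in both tissues were Pam16, Hspa1l, Nmrk2, Ccar1 and Gstp2. Pam16, a subunit of the motor that pulls proteins into mitochondria (chr16:4616464-4624988), had 1.24 and 0.34 in BAT controls, 0.094, -1.54 and -1.06 in BAT Cre, 0.68, 1.53 and 0.27 in liver controls and -1.55, -0.088 and -0.85 in liver Cre. The Cre difference was nearly equal, at -1.62 in BAT and -1.66 in liver. Hspa1l, an HSP70 chaperone (chr17:34972703-34979285), had 1.55 and 1.12 and -0.86, -0.046 and -0.77 in BAT, and 0.12, 1.87 and 0.37 and -0.98, -0.21 and -1.17 in liver. Both BAT controls were above 1, and in liver control 8 was highest. The liver difference was -1.57, and -1.03 without control 8. Hspa1l lies beside its close relatives Hspa1a and Hspa1b, so its reads are uncertain. Nmrk2, a nicotinamide riboside kinase found mainly in muscle (chr10:81198170-81202051), had 1.19 and 1.43 and -1.34, -0.10 and -0.44 in BAT, and 0.35, 1.55 and 0.41 and -0.37, -1.78 and -0.16 in liver. In BAT it resembled the muscle markers, with both controls high and Cre 4 lowest, but liver Cre 12 lay among the low libraries and not above the rest.

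Ccar1, a transcriptional coactivator of cell cycle and apoptosis genes (chr10:62743928-62792286), had 1.17 and 0.042 in BAT controls, -0.11, -1.58 and -0.77 in BAT Cre, -0.0059, 2.03 and 0.24 in liver controls and -0.93, -0.51 and -0.83 in liver Cre. Gstp2, a pi-class glutathione transferase with a close copy, Gstp1, that may share its reads (chr19:4040285-4046023), had 1.66 and 0.62 and -1.58, -0.60 and 0.005 in BAT, and 2.16, -0.12 and -0.21 and -0.81, -0.70 and -0.32 in liver. Liver control 8 was alone high for Ccar1, and liver control 7 for Gstp2. The only named gene that was non-overlapping and higher in both was Tcn2, which encodes transcobalamin, the plasma carrier of vitamin B12 (chr11:3917192-3932159). It had -2.18 and 0.12 in BAT controls, 0.65, 0.67 and 0.15 in BAT Cre, -1.84, -0.72 and 0.23 in liver controls and 0.69, 0.49 and 1.14 in liver Cre. Its difference was 1.52 in BAT and 0.37 there without control 1, the lowest BAT library. In liver it was 1.55, and 1.02 without control 7. The nearest BAT libraries of the groups differed by 0.034. The contrasts of these 6 genes lay between -0.64 and 0.084, and limma's adjusted p was 0.998 for each.

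Genes with a higher mean in both tissues were led in BAT by Cre 5, the highest BAT library for 52 of the 74. Extracellular matrix genes were also highest in BAT Cre 5 but were split between the classes. Of 7 shared members 3 were higher in both, 3 lower in BAT and higher in liver and 1 lower in both. Their mean was 0.098 and -0.17 in BAT controls and -1.06, 1.68 and -0.77 in BAT Cre, and -0.29, -0.49 and -0.31 in liver controls and -0.36, 0.46 and 0.99 in liver Cre. All 7 were highest in BAT Cre 5, while Cre 4 and Cre 6 were below the controls, so that the BAT difference (median -0.065) was small against the spread of the Cre libraries. Col1a1 and Col6a3, fibrillar and microfibrillar collagens, had 1.91 and 1.57 in BAT Cre 5, and 1.32 and 1.24 in liver Cre 12. Col5a3, a chain of type V collagen, was lower in liver, with 1.36, 1.3 and -0.13 in controls and -0.72, -1.27 and -0.54 in Cre. Without BAT Cre 5 all 7 were lower in BAT and 6 of the 7 opposed.

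Of 8 shared hepatocyte genes 5 were higher in both tissues and 3 opposed. Alb, the albumin gene, had 0.16 and -0.87 in BAT controls, -0.59, -0.19 and 2.11 in BAT Cre, -0.14, -2.15 and 0.64 in liver controls and 0.40, 0.62 and 0.64 in liver Cre. Apob, the main protein of very low density lipoprotein, had -0.065 and -0.28, -0.76, -0.14 and 2.13, 0.42, -2.22 and 0.30 and 0.68, 0.44 and 0.38 in these groups. In BAT both were high in Cre 6 alone, and in liver both were low in control 8 alone. Apoa1, the main protein of high density lipoprotein, was likewise highest in BAT Cre 6, at 2.09, but in liver it was highest in control 7, at 1.81, and so opposed. Without BAT Cre 6 the median BAT difference of the 8 genes was -0.20 against 0.64, and 7 of the 8 then opposed. The shared brown fat genes Dio2, the deiodinase that activates thyroid hormone, and Kcnk3, a potassium channel of brown adipocytes, were both higher in liver with Cre through Cre 12 alone. In BAT Dio2 had -1.54 and 1.39 in controls and -0.80, -0.037 and -0.024 in Cre, and Kcnk3 -1.52 and -0.53 and 0.22, 1.57 and -0.53. The BAT controls of Dio2 lay at both ends of the range, and Kcnk3 was non-overlapping by a narrow margin.

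Immediate early genes, which are induced within minutes of a stimulus, were higher in liver in 6 of 6 shared members (39.6% of the liver table had a higher Cre mean), 4 of which were lower in BAT and 2 higher. Their mean was 0.48 and 0.23 in BAT controls and -0.77, 0.99 and -0.46 in BAT Cre, then -0.46, -0.16 and -0.77 in liver controls and -0.25, 0.99 and 0.66 in liver Cre. In liver Cre 11 and Cre 12 were high and Cre 10 lay within the controls. Junb, an AP-1 component, had -1.45, 0.083 and -1.19 in liver controls and 0.63, 1.32 and 0.60 in liver Cre, the member with non-overlapping liver groups (10.3% of the liver table were non-overlapping and higher), and 1.17 and -0.62 and -0.35, 1.55 and -1.18 in BAT. Jund, of the same factor, had 0.51, -1.96 and -0.40 in liver controls and 0.13, 1.2 and 0.53 in liver Cre. Nr4a1, an orphan nuclear receptor, was high in liver Cre 12 alone, at 2.17, and highest in BAT Cre 5, at 1.57. Without liver Cre 12, 4 of the 6 were still higher in liver, and the 6 differences had a median of 1.03 there. Of 7 shared glucocorticoid-induced genes 3 opposed. Fkbp5, whose product binds that hormone's receptor together with HSP90, had 0.60 and 1.14 in BAT controls and -1.49, 0.19 and -1.22 in BAT Cre, against -1.97, 1.33 and 0.41 in liver controls and -0.20, 0.39 and 0.037 in liver Cre. Its BAT controls were both above every Cre library, while in liver the groups overlapped. Zbtb16, a zinc finger repressor, had a lower mean in both tissues, and Dusp1, a phosphatase that switches off MAP kinases, a higher one in both, each with overlapping groups in both tissues.

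**Figure D4:**
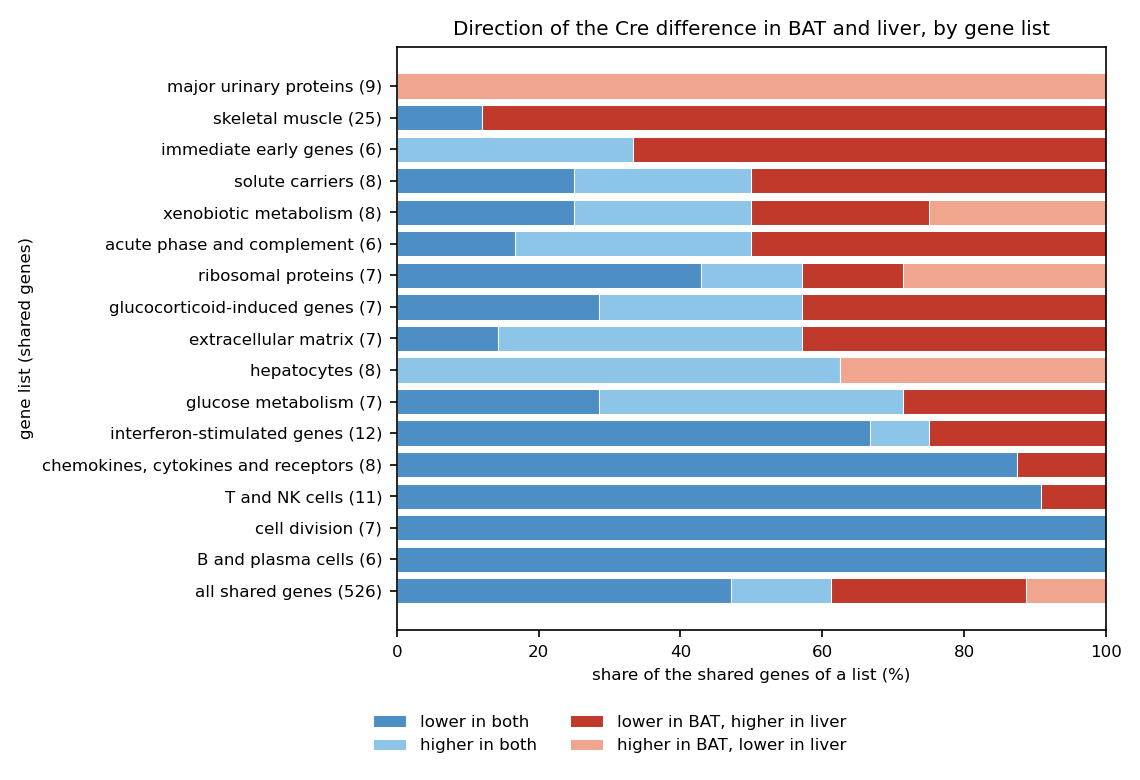
Share (%) of the shared genes of each gene list with at least 6 shared members that fell in each of the 4 direction classes, as stacked bars, with the number of shared genes in brackets and all 526 shared genes at the bottom. Opposing classes (red shades) fill the bar of the urinary protein genes and nearly all of the muscle bar, against 38.8% of all shared genes, while B and plasma cell and cell division genes lie wholly in the class lower in both.

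Metabolic lists had few shared members and were mixed. Of 7 shared glucose metabolism genes 3 were higher in both, 2 lower in both and 2 opposed. Pygm and Eno3, the muscle glycogen phosphorylase and enolase, are also on the muscle list and followed it in BAT, with -1.87 and -1.8 in Cre 4. Hk3, a hexokinase of white blood cells, was highest in BAT control 1, at 2.04, and in liver control 8, at 1.74, like the immune genes. Cps1, the entry enzyme of the urea cycle, was non-overlapping and higher in liver, with -0.23, -1.89 and -0.39 in controls and 0.65, 1.12 and 0.74 in Cre, and in BAT it was high in Cre 6 alone, at 2.12, as were the hepatocyte genes. Gls2, the liver glutaminase, opposed, with -0.22, -1.21 and -1.26 in liver controls and 0.44, 0.82 and 1.43 in liver Cre, and 2.07 and -0.73 in BAT controls and -0.58, -0.54 and 0.40 in BAT Cre. Tat, a tyrosine-degrading enzyme, was also highest in BAT Cre 6, at 2.15. Scd1, the stearoyl-CoA desaturase that makes oleate, had 1.0 and 1.4 in BAT controls and -0.72, -1.23 and 0.44 in BAT Cre, which did not overlap, and 1.03, -1.38 and -0.26 in liver controls and -1.16, 0.76 and 1.01 in liver Cre, which did. Acss2, which activates acetate, also opposed, and Fitm1, a muscle protein of lipid droplets, was lower in both. Both shared genes of cholesterol metabolism, the sterol synthesis enzyme gene Hsd17b7 and the SREBP regulator Insig1, were lower in BAT, where Cre 5 alone was low at -2.19 and -2.09, and higher in liver, where Cre 11 was highest at 1.67 and 1.24.

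Xenobiotic metabolism genes were split evenly, with 2 of 8 shared genes in each of the 4 classes. The cytochrome P450 gene Cyp2c69 was higher in both, with 1.98 in BAT Cre 6 and -2.2 in liver control 7, while Cyp2f2 was lower in BAT and higher in liver. Cyp2s1 was lower in both, with BAT control 1 alone high at 2.22. Solute carriers opposed in 4 of 8 cases, and Slc25a25, described above, was the member with non-overlapping groups in both tissues. Slc15a2, a peptide transporter, was higher in both, with -1.28 and -1.28 in BAT controls, 0.89, 1.13 and -0.24 in BAT Cre, -1.23, -0.76 and 0.51 in liver controls and 1.16, 1.22 and -0.89 in liver Cre. Its BAT groups did not overlap, and in liver Cre 12 lay among the controls. Of the 3 shared genes of the unfolded protein response Chac1, a glutathione-degrading enzyme, and Ddit4, an inhibitor of mTORC1, opposed, and Sdf2l1, a chaperone partner in the endoplasmic reticulum, was lower in both. Among 6 acute phase genes 3 opposed: Lbp, which binds bacterial lipopolysaccharide, had 0.22 and 0.70 in BAT controls and -2.07, -0.31 and 0.62 in BAT Cre, and -1.69, -1.01 and 0.45 in liver controls and 1.03, 0.41 and 0.81 in liver Cre. Of 7 ribosomal protein genes and pseudogenes 3 opposed. Rps12 was lower in BAT, with 1.44 and -0.61 in controls and -1.77, 0.052 and 0.30 in Cre, and non-overlapping and higher in liver, with -0.098, -1.32 and -1.32 and 0.86, 0.98 and 0.89. Liver controls 8 and 9 shared its lowest liver score, -1.32. The processed pseudogenes of Rps12 are near-identical, so its values are uncertain.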

How the data were processed

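RNA was enriched for poly(A) and sequenced, per the labels' protocols, which describe both directional and non-directional libraries, so reads of antisense pairs cannot be assigned. Builds GRCm38, mm10 and mm9 and the tools DESeq2 1.20.0 and TopHat 1.3.3 stand, without roles, in the submitters' processing notes. The authors deposited 1 score per gene and library. From the values these are row z-scores: all 2500 liver rows sum to 0 with squares summing to 6 (tolerance 1e-06), and BAT rows do so once minus their sum is added as a further value, so BAT was scaled over 6 libraries, of which 5 are analysed here. The choice of the 2500 genes and any log step are not given in the sources used here, and depth is unknown. The deposited BAT scores carry the label BAT DOWNREGULATED CRE and the liver scores LIVER UPREGULATED CRE. Both hold genes of both directions: 17.5% of BAT genes had a higher Cre mean and 60.4% of liver genes a lower one. Should the tables have been selected for variation or for direction, counts of differing genes and shares by direction are no separate support. 1 shared symbol had a date form and named no gene, 79 were predicted or clone symbols, and 45 genes had tied lowest scores in a tissue.

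Samples were grouped by tissue and virus from their titles. Each shared gene was fitted with limma 3.58.1 (R 4.3.3), a mean per group over 4 groups (7 residual degrees of freedom), two-sided, without variance moderation because row scores have fixed variance, with Benjamini-Hochberg adjustment over 526 genes at 0.05. The model takes the tissues as separate mice. Tissue values used the same model over 2500 genes. The fit was run on simulated data with independent normal values and no outlying library. That run does not give its power on these scores. Named genes were up to 6 per direction with non-overlapping groups in both tissues and the largest smaller difference, the 3 smallest contrast p per sign, and for each gene list with at least 2 shared members all of up to 4 members, otherwise the first 3 and any non-overlapping in both tissues, leaving out predicted symbols; 1 gene under this rule is not reported here. Members and lists were chosen with earlier results of these data known. Of 46 lists 30 had at least 2 shared members, 6 had 1 and 10 had 0. Positions are from the GENCODE release 21 annotation of GRCm38 (508 symbols matched) and promoters from RefSeq. Python 3.11.15, pandas 2.3.3 and matplotlib 3.10.9 were used. Alternatives were other variance, scaling, rank and median summaries, libraries left out, and fewer genes counted.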

Additional observations from a re-analysis of the deposited data

Results flagged for a closer look

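A total of 10 named genes drew attention because every Cre library lay on 1 side of the controls in BAT and on the opposite side in liver. As they were chosen for that separation in these same scores, limma's gene-wise contrast over the 11 libraries describes it and is no test. None passed the adjusted threshold over the 526 shared genes, where limma's adjusted p lay between 0.43 and 0.71. The contrast below 0 was -3.57 for Nqo1, -3.64 for Srl, -3.52 for Slc25a25, -3.04 for Dsp, -2.93 for Ppl and -2.56 for Acta1. The contrast above 0 was 3.39 for Mettl20, 3.21 for Mup16, 2.94 for Mup14 and 2.77 for Apoc1. Over the 18 alternatives the contrast of Srl ranged from -3.93 to -2.96 and that of Nqo1 from -4.18 to -3.16, while that of Acta1 ranged from -3.52 to -1.01, that of Dsp from -4.15 to -1.27, that of Ppl from -3.88 to -1.31 and that of Apoc1 from 1.41 to 3.52. Such separation in opposite directions was found in 14 of the 526 shared genes (1.71% lower in BAT and higher in liver, 0.951% the reverse). Some such genes would be found in unrelated tissues too, as 28.1% of the shared genes were non-overlapping in BAT and 21.3% in liver.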

How the results depend on the processing

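No paired analysis was possible because library numbers are not shared across groups or tissues. The contrasts of the 10 opposing named genes, and the tissue differences of the 6 agreeing ones, kept their sign in all 396 values over 18 alternatives. That outcome was fixed in advance and is no sign of stability. Groups that do not overlap keep the sign of their difference whichever libraries are left out, and under rescaling, ranks or moderation. With 1 library left out in turn, genes past the adjusted threshold ranged from 0 to 1 in the contrast, from 0 to 433 in BAT and stayed at 0 in liver. The 433 came without BAT control 2, which leaves control 1 alone, assumed to vary like the other groups, and the 1 was Pgam1-ps2, whose BAT scores are tied, without BAT control 1. The share of opposing genes ranged from 34.8% to 54.9%. Genes non-overlapping in both tissues ranged from 28 to 79, from 11 to 41 with the same direction and from 16 to 38 with opposite directions, against 23, 9 and 14 with all libraries, since smaller groups overlap less easily.

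Without BAT control 1 and liver control 7 together, 1 gene passed, 55.5% of genes opposed, and 102 were non-overlapping in both tissues, 47 alike and 55 opposite. Alternatives chosen after seeing the data left out further pairs. Without BAT control 1 and liver control 8, 1 gene passed, 54.0% opposed, and 65 were non-overlapping, 26 alike and 39 opposite. Without BAT Cre 4 and liver Cre 12, 2 genes passed, Acta1 with a contrast of -1.01 (limma adjusted p = 0.0018) and Mb. The liver difference of Acta1 was then 0.06. The libraries left out held the extreme muscle scores, and the Acta1 scores that remained lay close together within each group, so this p is no test. In that run 51 genes were non-overlapping, 31 alike. Without BAT Cre 6 and liver Cre 12, 43 were non-overlapping, 25 alike. Rank, rescaled, moderated and group median summaries moved no count past 1.5 times. A filter on low values and another pseudocount were not run, as scores have neither. Scores carry no depth, so no limit of detection can be set, and 1 extreme library compresses the others.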

Other observations

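Of the 526 shared genes 169 were on at least 1 gene list: 70 of those lower in both tissues, 21 of those higher in both, 60 of those lower in BAT and higher in liver and 18 of those higher in BAT and lower in liver. The 2 shared genes of the neutrophil list, neither of them particular to that cell type, opposed in different directions (38.8% of all shared genes opposed). Lcn2, a neutrophil and acute phase protein that binds siderophores, had -0.38 and 0.13 in BAT controls, -0.87, 0.66 and -1.27 in BAT Cre, -1.14, 0.66 and -0.19 in liver controls and 1.86, -0.77 and -0.42 in liver Cre, and Hdc, the histamine-forming enzyme of mast cells and basophils, had -1.37 and -0.95, 0.21, 1.5 and -0.29, 0.30, 1.5 and -0.16 and -1.85, -0.22 and 0.44. Sftpa1, a surfactant protein of the lung, had 2.24 in BAT Cre 4 and tied values of -0.45 in the other BAT libraries, and it was highest in liver control 8, at 2.04. BAT Cre 4 was thus the high library for Sftpa1 and the low library for muscle genes.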
